A study of Mus musculus with 24 samples.

Results

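Cholesterol efflux, cholesterol storage and lipid droplet genes were followed through CD11b-positive brain cells of adult male mice. The set holds 9 genes of 55487 in the deposited table, chosen by gene name: Nr1h3, Ch25h, Abca1, Abcg1, Mylip, Soat1, Plin2, Lipa and Npc2. All 9 passed the filter on low counts, as did 17139 genes in all. After LPS, 4 of them (Nr1h3, Ch25h, Plin2 and Soat1) rose in every one of 4 comparisons with saline. Their LPS and saline groups did not overlap in any of these. In single comparisons, 26.8% to 44.4% of all tested genes did not overlap. How many rose, or did not overlap, in all 4 together was not counted. The exporters Abca1 and Abcg1, the ubiquitin ligase Mylip and the lysosomal genes Lipa and Npc2 moved less, and most of their calls depended on a single library or on a setting. Some calls of Soat1, and that of Nr1h3 in MIA striatum, did so too, while those of Ch25h and Plin2 held.

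Immune cells take in cholesterol with lipoproteins and with engulfed membrane, free it in the lysosome, and then either export it, esterify it for storage in lipid droplets, or oxidise it. Liver X receptors (LXR), nuclear receptors switched on by oxysterols and desmosterol, drive transcription of the exporters and of Mylip. Microglia clear myelin and cell debris, which are rich in cholesterol, and droplet-laden microglia are known from aged and inflamed brain.

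Libraries came from 8 groups that crossed prenatal history, brain region and treatment. Offspring of dams whose immune system was stimulated while they were pregnant, called maternal immune activation (MIA), were set against control offspring (CON). Striatum was set against frontal cortex. LPS, a bacterial cell wall component that triggers innate immune signalling, was injected intraperitoneally at 4500 EU/g, and saline served as its reference. All mice were males of 8 to 10 weeks, and cells were taken 18 h after the injection. The labels used here do not name the stimulus given to the dams, the litters or the strain. In order, the groups were MIA striatum after LPS, MIA striatum after saline, MIA cortex after LPS, MIA cortex after saline, and the same 4 in control offspring. Each had 3 libraries except MIA striatum after LPS, which had 2 because the title of its replicate 3 marks that library as excluded. Pieces of striatum were pooled by the submitters, meninges were removed, and cells were caught with CD11b magnetic beads, which bind microglia and also other myeloid cells.

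The 23 libraries held 19453295 to 29480499 counts over 17723 to 20324 detected genes. Levels are given below in CPM, counts scaled to a common library total with TMM factors. CPM do not correct for gene length, so levels are compared between samples and not between genes. Summed over a list of 12 microglial markers, the libraries stood at 30375 to 42406 CPM after LPS and 47852 to 65443 CPM after saline. In every library the microglial sum lay above that of each other cell type marker list. Of these 12 markers, 11 fell with LPS averaged over the 4 comparisons, while 6 of 8 monocyte markers and 8 of 11 neutrophil markers rose and 1 neutrophil marker fell. The monocyte sum was 123 to 344 CPM after LPS and 37.0 to 172 CPM after saline, and the neutrophil sum was 577 to 1095 CPM after LPS and 299 to 1012 CPM after saline. Border macrophage markers summed to 882 to 1226 CPM in MIA striatum after LPS and 333 to 508 CPM in MIA striatum after saline, where 5 of 9 rose. In control striatum, oligodendrocyte markers summed to 476 to 1064 CPM after LPS and 1280 to 5493 CPM after saline. The endothelial and pericyte sum there was 746 to 1166 CPM after LPS and 1287 to 2697 CPM after saline, and 8 of its 13 markers fell. The part of these cell mixtures in the results below was not tested, and in bulk libraries fewer cells of a type and less RNA per cell cannot be told apart.

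RefSeq promoters of the 4 genes that rose in every LPS comparison are shown because they moved together. Each runs from 250 bases before to 50 bases after an annotated start, in build GRCm38.p6, all on the minus strand: chr2:91195067-91195366 for Nr1h3 (the upstream of 2 annotated starts), chr19:34475099-34475398 for Ch25h, chr4:86670010-86670309 for Plin2 and chr1:156474279-156474578 for Soat1. Capitals mark the searched motif that was present.
Nr1h3: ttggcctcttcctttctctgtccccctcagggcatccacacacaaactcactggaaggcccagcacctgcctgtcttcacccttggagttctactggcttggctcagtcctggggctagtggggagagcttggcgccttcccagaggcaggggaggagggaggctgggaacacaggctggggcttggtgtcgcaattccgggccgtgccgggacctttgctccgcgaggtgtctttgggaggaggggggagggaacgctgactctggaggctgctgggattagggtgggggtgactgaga
Ch25h: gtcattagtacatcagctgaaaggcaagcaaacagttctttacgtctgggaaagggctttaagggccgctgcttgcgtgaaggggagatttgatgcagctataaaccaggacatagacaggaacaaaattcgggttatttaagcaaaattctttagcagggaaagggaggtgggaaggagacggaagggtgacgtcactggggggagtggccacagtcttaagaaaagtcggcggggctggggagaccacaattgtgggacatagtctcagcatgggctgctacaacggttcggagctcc
Plin2: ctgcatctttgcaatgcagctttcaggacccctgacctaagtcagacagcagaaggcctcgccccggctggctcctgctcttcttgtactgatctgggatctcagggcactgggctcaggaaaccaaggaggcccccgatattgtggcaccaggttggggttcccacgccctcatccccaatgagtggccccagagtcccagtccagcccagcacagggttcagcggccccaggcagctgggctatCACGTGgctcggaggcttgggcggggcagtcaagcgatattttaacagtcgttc
Soat1: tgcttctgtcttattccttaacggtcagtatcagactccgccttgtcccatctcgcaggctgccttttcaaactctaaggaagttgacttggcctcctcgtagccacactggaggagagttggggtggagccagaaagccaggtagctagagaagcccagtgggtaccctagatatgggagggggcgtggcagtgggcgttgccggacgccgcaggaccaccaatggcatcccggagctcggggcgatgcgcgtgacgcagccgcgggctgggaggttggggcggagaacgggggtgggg
Both strands were searched for 5 motifs, of which the last is its own reverse complement. GGTCANNNNNGGTCA, the core of an LXR response element of the DR4 type, was in 0.0761% of 32841 promoters of the same length. GGGANNTTCC, a kappaB core, was in 1.47%, GAAANNGAAA, an interferon response core, in 3.44%, and TTCNNNGAA, a STAT site core, in 8.30%. None of these was in the 9 promoters listed for 8 members (Abcg1 had no entry). CACGTG, the E-box read by factors of the MiT/TFE and Myc families, was in 7.15% of promoters and in 2 of the 9, that of Plin2, where it begins 4 bases before the start, and that of Abca1, where it begins 147 bases before the start. Absence from these windows says nothing about the factors.

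**Figure D1:**
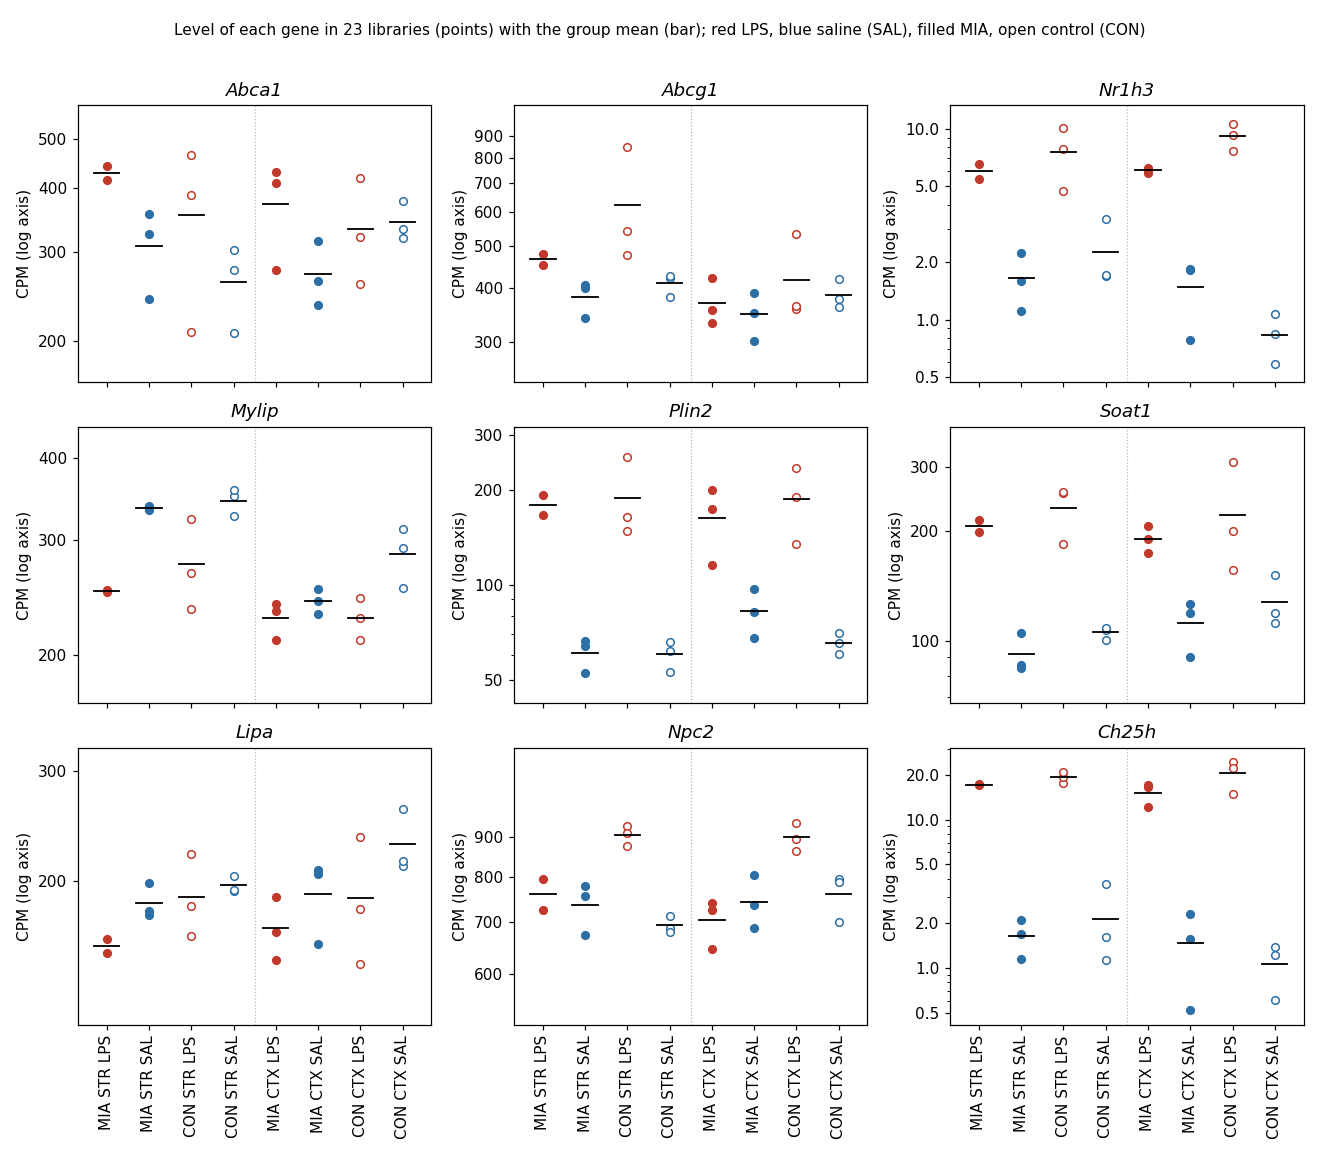
Level of each gene in every library, in CPM on a log axis, by group, with LPS groups beside their saline groups. Points are libraries and bars are group means. Nr1h3, Ch25h, Plin2 and Soat1 have all 11 LPS libraries above all 12 saline libraries, while the other 5 genes overlap between treatments. How many of all tested genes part in this way was not counted.

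The first question was what LPS did to these genes in each of the 4 combinations of prenatal history and region. In the quasi-likelihood test of edgeR, with Benjamini-Hochberg adjustment over all 17139 genes, 4 members rose and 1 fell in MIA striatum, where 10.2% of all tested genes were called, 6.93% higher and 3.31% lower. In MIA cortex 4 rose and 0 fell, against 11.9% of all genes called, 7.05% higher and 4.85% lower. In control striatum 6 rose and 0 fell, against 20.9%, 12.7% higher and 8.15% lower. In control cortex 4 rose and 0 fell, against 18.2%, 10.9% higher and 7.25% lower. For Nr1h3, Ch25h, Plin2 and Soat1 the LPS and saline groups did not overlap in any of the 4. Taken singly, the comparisons had 44.4%, 26.8%, 34.9% and 33.5% of all tested genes without overlap, in the same order. The share over all 4 together was not counted. The median log2 fold change of the 9 members was 0.48, 0.46, 0.60 and 0.24 in the same order, beside -0.06, 0.01, -0.02 and 0.04 over all tested genes. Averaged over the 4 comparisons, 7 members rose and 1 fell, against 37.6% of all genes called, 20.7% higher and 16.9% lower. An alternative fit (limma voom) estimated a correlation between same-numbered cortex and striatum libraries of the same prenatal and treatment group. With it 3 of these calls were lost, those of Abca1 (adjusted p = 0.103), Abcg1 (adjusted p = 0.086) and Npc2 (adjusted p = 0.0551).

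Nr1h3 (ENSMUSG00000002108.10) encodes LXR alpha, the inducible one of the pair of liver X receptors. It stood at 5.43 and 6.56 CPM in MIA striatum after LPS, against 1.11, 1.59 and 2.24 CPM after saline. In MIA cortex it was at 5.90, 6.23 and 6.11 CPM after LPS, against 1.85, 0.780 and 1.82 CPM after saline. The LPS libraries of both regions were high and did not overlap with the saline ones, and the 3 MIA cortex LPS libraries were nearly level. In control striatum the values were 4.72, 7.88 and 10.1 CPM after LPS and 1.69, 3.36 and 1.71 CPM after saline. Control cortex had 9.25, 10.6 and 7.70 CPM after LPS and 0.585, 1.07 and 0.842 CPM after saline. Control cortex thus held both the highest LPS library and the lowest saline library, and its change was the largest of the 4. The log2 fold changes (± SE) were 1.86 ± 0.42 (adjusted p = 0.00581) in MIA striatum, 2.03 ± 0.40 (adjusted p = 0.00148) in MIA cortex, 1.75 ± 0.39 (adjusted p = 0.0027) in control striatum and 3.47 ± 0.42 (adjusted p = 6.79e-06) in control cortex. These rest on low counts, 14 to 274 per library, and the MIA striatum call was lost without LPS replicate 2 there (log2 fold change 1.65, adjusted p = 0.0896). An annotated transcript, Gm13783, overlaps Nr1h3 on the same strand, and reads of both cannot be fully told apart. The sister gene Nr1h2, which encodes LXR beta, was not called in any of the 4 comparisons, with log2 fold changes of 0.14, -0.16, 0.14 and -0.10 in the same order.

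Ch25h (ENSMUSG00000050370.5) encodes cholesterol 25-hydroxylase, which makes 25-hydroxycholesterol, an oxysterol that macrophages release when stimulated by interferon or by Toll-like receptors. Its highest library was one of control cortex after LPS, which stood at 24.4, 22.2 and 14.7 CPM, against 1.38, 1.22 and 0.608 CPM after saline. Control striatum was at 17.6, 19.3 and 21.0 CPM after LPS, against 3.67, 1.62 and 1.14 CPM after saline. The highest of all saline libraries, control striatum replicate 1, still lay well under the lowest LPS library. MIA striatum had 17.0 and 17.2 CPM after LPS, against 1.15, 2.11 and 1.71 CPM after saline. MIA cortex had 12.1, 17.0 and 16.5 CPM after LPS, against 2.31, 1.56 and 0.521 CPM after saline. No LPS and saline group of this gene overlapped, and it showed the largest fold changes among the 9 members. They were 3.36 ± 0.48 (adjusted p = 8.13e-05) in MIA striatum, 3.38 ± 0.46 (adjusted p = 4.12e-05) in MIA cortex, 3.18 ± 0.45 (adjusted p = 3.62e-05) in control striatum and 4.25 ± 0.48 (adjusted p = 2.99e-06) in control cortex, on a log2 scale. Counts ran over 13 to 569 per library, so the saline levels are known less well than the LPS levels. A noncoding transcript, Gm26902, overlaps the gene on the opposite strand, and whether counting used strand is not given in the sources used here. None of the calls for Ch25h or Plin2 changed in 23 fits that each left out a library or under 7 other settings.

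The storage genes rose together. Plin2 (ENSMUSG00000028494.12) encodes perilipin 2, the coat protein of lipid droplets in most cells outside fat tissue, where it is stable when bound to a droplet. It was at 167 and 193 CPM in MIA striatum after LPS, against 63.8, 66.2 and 52.5 CPM after saline. In MIA cortex it was at 201, 175 and 116 CPM after LPS, against 82.0, 97.3 and 68.1 CPM after saline. MIA cortex had the lowest LPS library and the highest saline library, and the groups still did not overlap. Control striatum reached 256, 148 and 164 CPM after LPS, against 52.9, 61.6 and 66.0 CPM after saline. Control cortex reached 235, 136 and 191 CPM after LPS, against 65.3, 60.1 and 70.1 CPM after saline. In control offspring every LPS library was thus above every saline library of its region, with replicate 1 of the LPS group highest in both regions. The log2 fold changes were 1.57 ± 0.25 (adjusted p = 0.000241) in MIA striatum, 0.99 ± 0.23 (adjusted p = 0.00577) in MIA cortex, 1.65 ± 0.23 (adjusted p = 2.89e-05) in control striatum and 1.52 ± 0.23 (adjusted p = 7.55e-05) in control cortex.

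Soat1 (ENSMUSG00000026600.12) encodes sterol O-acyltransferase 1 (ACAT1), the enzyme of the endoplasmic reticulum that esterifies cholesterol for storage and the main such enzyme of macrophages. It was at 198 and 215 CPM in MIA striatum after LPS, against 83.9, 85.9 and 105 CPM after saline. MIA cortex had 207, 191 and 174 CPM after LPS, against 90.0, 126 and 119 CPM after saline. The MIA groups were separated by a clear gap in both regions. In control striatum it was at 255, 185 and 256 CPM after LPS, against 107, 100.1 and 108 CPM after saline. In control cortex it was at 199.8, 156 and 311 CPM after LPS, against 112, 119 and 152 CPM after saline. The control cortex groups came close to each other, and LPS replicate 3 stood high there. Log2 fold changes were 1.17 ± 0.22 (adjusted p = 0.00127) in MIA striatum, 0.77 ± 0.20 (adjusted p = 0.0151) in MIA cortex, 1.14 ± 0.20 (adjusted p = 0.000389) in control striatum and 0.80 ± 0.20 (adjusted p = 0.00791) in control cortex. The control cortex call was lost without its LPS replicate 3 (log2 fold change 0.48, adjusted p = 0.0746) and in a fit of only the groups compared (0.0766). The MIA cortex call was lost without LPS replicate 1 (0.0596) or saline replicate 1 (0.105) of that region. Adding back the excluded library ended the calls in MIA striatum (adjusted p = 0.0656), MIA cortex (0.111) and control cortex (0.072). A transcript named Gm37648 overlaps Soat1 on the opposite strand.

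The exporters moved less. Abca1 (ENSMUSG00000015243.4) encodes the transporter that loads cholesterol and phospholipid onto lipid-poor apolipoproteins such as ApoE, and it is a classic LXR target. It was at 416 and 442 CPM in MIA striatum after LPS, against 326, 356 and 242 CPM after saline. MIA cortex had 431, 411 and 276 CPM after LPS, against 315, 263 and 235 CPM after saline. The MIA striatum groups did not overlap and the MIA cortex groups did. Control striatum had 208, 467 and 389 CPM after LPS, against 302, 276 and 207 CPM after saline. Control cortex had 259.5, 419 and 320.5 CPM after LPS, against 319, 377 and 333 CPM after saline. LPS replicates of control striatum spread from within to far above their saline group, and control cortex showed full overlap. No single comparison was called: the log2 fold changes were 0.48 ± 0.27 (95% interval -0.09 to 1.05) in MIA striatum, 0.46 ± 0.25 (-0.06 to 0.98) in MIA cortex, 0.44 ± 0.25 (-0.08 to 0.95) in control striatum and -0.04 ± 0.25 (-0.56 to 0.47) in control cortex, with adjusted p from 0.237 to 0.945. Without LPS replicate 1 of control striatum, that comparison was called (log2 fold change 0.71, adjusted p = 0.0323). The mean over the 4 comparisons was 0.33 ± 0.13 (adjusted p = 0.0444), a call lost without any 1 of 16 of the 23 libraries (adjusted p 0.052 to 0.126), with other size factors (0.055) and with the excluded library added back (0.472).

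Abcg1 (ENSMUSG00000024030.7) encodes the partner transporter that passes sterols to mature high-density lipoprotein, also under LXR control. MIA striatum stood at 453 and 479 CPM after LPS, against 399.9, 405 and 339.7 CPM after saline. MIA cortex stood at 421, 332 and 355 CPM after LPS, against 302, 390.0 and 350.2 CPM after saline. LPS libraries were the higher ones in MIA striatum, while MIA cortex overlapped. Control striatum stood at 848, 477 and 541 CPM after LPS, against 381, 422 and 425 CPM after saline. Control cortex stood at 357, 364 and 533 CPM after LPS, against 419, 376 and 360.4 CPM after saline. The single library at the top, control striatum LPS replicate 1, was far above every other one. Only the control striatum comparison was called, at 0.60 ± 0.19 (adjusted p = 0.0259) on the log2 scale, and without that library it was 0.31 (adjusted p = 0.208). It also missed the threshold without saline replicate 1 (0.0943) or 2 (0.0605) of control striatum, or with only the groups compared (0.128). The other changes were 0.29 ± 0.21 in MIA striatum, 0.09 ± 0.19 in MIA cortex and 0.12 ± 0.19 in control cortex, and the mean of the 4 was 0.27 ± 0.10 (adjusted p = 0.0292). That mean missed the threshold with other size factors (0.0519) and without any 1 of 6 libraries (0.0501 to 0.113).

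Mylip (ENSMUSG00000038175.10), also called Idol, encodes a ubiquitin ligase that limits lipoprotein uptake and is the third LXR target of the set. It went down where it moved. MIA striatum had 252 and 249.6 CPM after LPS, against 336, 337 and 333 CPM after saline. MIA cortex had 239.8, 234 and 211 CPM after LPS, against 242, 253 and 232 CPM after saline. The MIA striatum groups were tight and well apart, and those of MIA cortex overlapped. Control striatum had 267, 322 and 236 CPM after LPS, against 350.2, 357 and 325 CPM after saline. Control cortex had 245, 228 and 211 CPM after LPS, against 291, 311 and 253 CPM after saline. Every LPS library of control offspring lay below every saline library of its region. Mylip fell in MIA striatum, at -0.42 ± 0.13 (adjusted p = 0.0495) on the log2 scale, and over the mean of the 4 comparisons, at -0.29 ± 0.06 (adjusted p = 0.000725). The other values were -0.08 ± 0.12 (adjusted p = 0.76) in MIA cortex, -0.32 ± 0.12 (adjusted p = 0.0578) in control striatum and -0.32 ± 0.12 (adjusted p = 0.065) in control cortex. The mean kept its call without any 1 of the 23 libraries and under the 7 other settings. The MIA striatum call was lost without any of its 5 libraries (adjusted p 0.0515 to 0.178) and without any of 8 libraries of other groups (0.0522 to 0.0624), while the control calls were gained with DESeq2 (0.00388 in striatum and 0.00577 in cortex).

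Lipa (ENSMUSG00000024781.16) encodes lysosomal acid lipase, which cuts cholesteryl esters and triglycerides delivered to the lysosome. LPS libraries of all groups stood at 148, 166 and 236 CPM (lowest, median and highest of 11), against 159, 201 and 261 CPM in the 12 saline libraries. The treatments overlapped, with 3 LPS libraries below all saline libraries and 0 above them. Lipa had log2 fold changes of -0.23 ± 0.18 in MIA striatum, -0.18 ± 0.16 in MIA cortex, -0.06 ± 0.16 in control striatum and -0.29 ± 0.16 in control cortex, none of them called by edgeR (adjusted p from 0.255 to 0.847). Without LPS replicate 3 of control cortex the value there was -0.48 (adjusted p = 0.0434). The mean of the 4 was -0.19 ± 0.08 (adjusted p = 0.0781), with an interval of -0.36 to -0.02. That mean was called with DESeq2 (adjusted p = 0.0397), with other size factors (0.0472) and without 1 of 3 libraries, control cortex LPS replicate 3, control striatum LPS replicate 3 or MIA cortex saline replicate 1 (0.0166 to 0.0412).

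Npc2 (ENSMUSG00000021242.9) encodes the small sterol carrier of the lysosome lumen that hands cholesterol to NPC1. Control striatum had 932, 877 and 911 CPM after LPS, against 713, 687 and 678 CPM after saline. Control cortex had 895, 865 and 939 CPM after LPS, against 796, 788 and 699.8 CPM after saline. In both regions of control offspring the LPS libraries lay above the saline ones. MIA striatum had 724 and 795 CPM after LPS, against 755, 779 and 674 CPM after saline. MIA cortex had 724, 739.7 and 645 CPM after LPS, against 805, 735 and 687 CPM after saline. In MIA offspring the treatments overlapped in both regions. The log2 fold changes were 0.05 ± 0.12 (adjusted p = 0.881) in MIA striatum, -0.08 ± 0.11 (adjusted p = 0.745) in MIA cortex, 0.39 ± 0.11 (adjusted p = 0.0117) in control striatum and 0.24 ± 0.11 (adjusted p = 0.13) in control cortex. The control striatum call was lost without the filter on low counts (adjusted p = 0.133) and with only the groups compared (0.137). Control cortex was called with DESeq2 (0.024) and without MIA cortex saline replicate 1 (0.0387). The mean of the 4 was 0.15 ± 0.05 (adjusted p = 0.0358), a call lost with other size factors (0.0655), without the filter on low counts (0.227) and without any 1 of 7 libraries (0.0525 to 0.24). Without MIA striatum LPS replicate 2 the mean was 0.10.

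**Figure D2:**
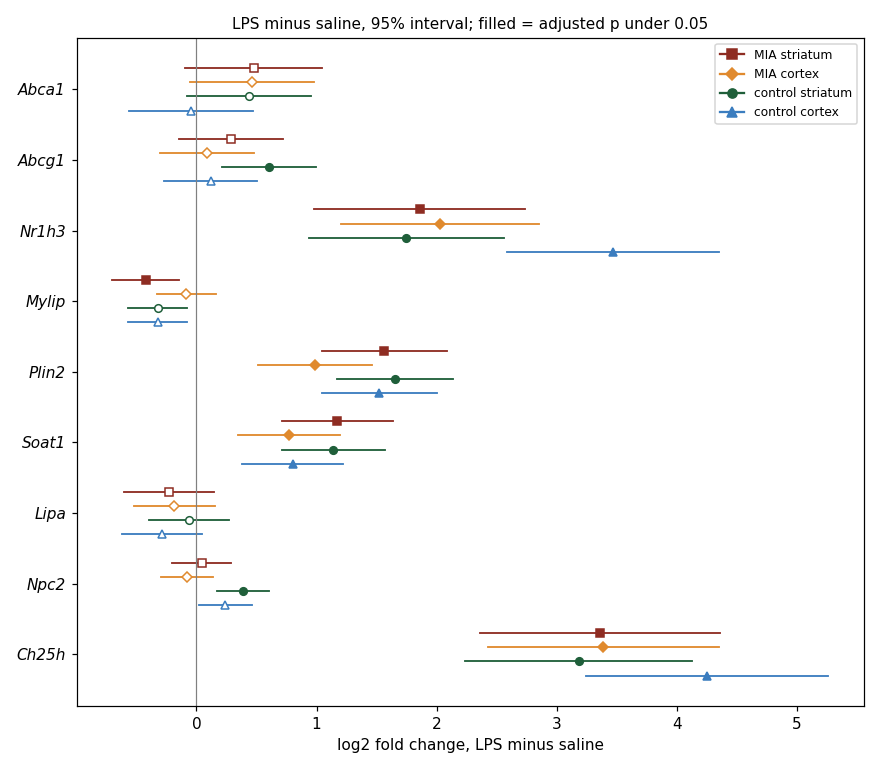
Log2 fold change of LPS against saline for the 9 genes in each of the 4 combinations of prenatal history and region, with 95% intervals. Filled symbols had an adjusted p under 0.05 in the edgeR quasi-likelihood test. Nr1h3, Plin2, Soat1 and Ch25h are filled in all 4, Abcg1 and Npc2 in control striatum and Mylip in MIA striatum.

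The order of the groups placed the 4 LPS groups above the 4 saline groups for Nr1h3, Ch25h, Plin2 and Soat1. Among the LPS groups of Nr1h3 the order was control cortex (9.19 ± 1.47 CPM, mean ± SD, n = 3), control striatum (7.57 ± 2.71), MIA cortex (6.08 ± 0.169) and MIA striatum (6.00 ± 0.800, n = 2), and each neighbour overlapped the next. Control cortex (7.70 to 10.6 CPM) did not overlap with MIA cortex (5.90 to 6.23 CPM) or MIA striatum (5.43 to 6.56 CPM). Plin2 and Soat1 put control striatum first and MIA cortex last among the LPS groups, and neighbours overlapped there too. For Npc2, control striatum (906 ± 27.8 CPM) and control cortex (899.6 ± 37.4 CPM) after LPS stood above all other groups without overlap. For Mylip, control striatum (344 ± 16.5 CPM) and MIA striatum (335 ± 2.33 CPM) after saline stood above the rest. In Abca1 and Abcg1 every group overlapped the next. Of all tested genes, 7.85% did not overlap between MIA and control cortex after LPS. How many of all genes show the other orders given here was not counted.

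The wider pathway was followed with 5 lists of 90 genes. Among 16 LXR and sterol export partners, 1 rose and 1 fell in MIA striatum, 0 and 2 in MIA cortex, 0 and 2 in control striatum, and 0 and 1 in control cortex. Over all tested genes 6.93%, 7.05%, 12.7% and 10.9% rose and 3.31%, 4.85%, 8.15% and 7.25% fell in the same order. In a list of 16 genes these counts are near those shares. The median log2 fold change of the list over the mean of the 4 comparisons was -0.12, beside -0.04 over all tested genes. Pltp, an LXR target that encodes phospholipid transfer protein, fell in all 4, with log2 fold changes of -1.72 ± 0.44 (adjusted p = 0.0139) in MIA striatum, -1.84 ± 0.38 (adjusted p = 0.00253) in MIA cortex, -2.34 ± 0.39 (adjusted p = 0.000178) in control striatum and -1.22 ± 0.38 (adjusted p = 0.0281) in control cortex. It stood at 46.5, 51.1 and 42.1 CPM in control striatum after LPS, against 297, 249 and 161 CPM after saline. Apoe, the main apolipoprotein acceptor of exported cholesterol in brain, fell in MIA cortex, at -0.94 ± 0.21 (adjusted p = 0.0044). Its values elsewhere were -0.17 in MIA striatum, -0.16 in control striatum and -0.51 in control cortex, none called. Abca7, a relative of Abca1, rose in MIA striatum, at 1.15 ± 0.36 (adjusted p = 0.0491). Smpdl3a, a phosphodiesterase related to acid sphingomyelinase, fell in control striatum, at -0.49 ± 0.14 (adjusted p = 0.019). The endothelial and pericyte sum given above was also lower after LPS in control striatum, and its part in the change of Pltp was not tested. The Pltp gene overlaps Ctsa, which lies on the opposite strand.

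Of 27 tested genes for droplet coats, acyltransferases and lipases, 4 rose and 2 fell in MIA striatum, 1 and 4 in MIA cortex, 4 and 5 in control striatum, and 7 and 5 in control cortex. Over all tested genes 6.93%, 7.05%, 12.7% and 10.9% rose and 3.31%, 4.85%, 8.15% and 7.25% fell in the same order. The median of the list over the mean of the 4 was 0.14. Soat2, which encodes the second cholesterol acyltransferase, known mainly from liver and intestine, had the largest changes of the list in all but MIA striatum. It was at 12.7 and 14.6 CPM in MIA striatum after LPS, against 0.620, 1.18 and 0.746 CPM after saline. In control cortex it was at 21.4, 21.0 and 18.9 CPM after LPS, against 0.878, 0.609 and 0.374 CPM after saline. These libraries did not overlap, and the saline values rest on few reads. Soat2 rose by 3.99 ± 0.50 (adjusted p = 2.06e-05) in MIA striatum, 4.50 ± 0.49 (adjusted p = 3.53e-06) in MIA cortex, 3.64 ± 0.47 (adjusted p = 1.33e-05) in control striatum and 5.02 ± 0.51 (adjusted p = 7.67e-07) in control cortex on the log2 scale.

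Both named inhibitors of the triglyceride lipase ATGL rose outside MIA cortex. Hilpda changed by 1.00 ± 0.28 (adjusted p = 0.0236) in MIA striatum, 0.56 ± 0.25 (adjusted p = 0.179) in MIA cortex, 1.50 ± 0.26 (adjusted p = 0.000255) in control striatum and 1.17 ± 0.26 (adjusted p = 0.00252) in control cortex. G0s2 changed by 2.24 ± 0.49 (adjusted p = 0.00416), 0.76 ± 0.44 (adjusted p = 0.326), 1.58 ± 0.45 (adjusted p = 0.0151) and 1.80 ± 0.45 (adjusted p = 0.00696) in the same order. Mgll, the monoacylglycerol lipase, fell in all 4, from -0.96 in MIA cortex to -1.44 in control striatum (adjusted p 0.00113 to 0.0316). Lpin1, a phosphatidate phosphatase of glycerolipid synthesis, also fell in all 4, from -1.16 in MIA striatum to -1.61 in control striatum (adjusted p 6.2e-05 to 0.00739). Lpin2 fell in control striatum (-0.73 ± 0.17) and control cortex (-0.87 ± 0.17). Cd36, a scavenger receptor for oxidised lipoproteins and fatty acids, fell in MIA cortex (-1.37 ± 0.34), control striatum (-1.57 ± 0.34) and control cortex (-1.44 ± 0.34), and stood at -0.98 ± 0.38 (adjusted p = 0.122) in MIA striatum. Fabp4, a fatty acid carrier, was called in MIA striatum (adjusted p = 0.0194) at very low levels of 0.277 and 0.878 CPM after LPS, against at most 0.0355 CPM after saline. Fabp5, a related carrier, rose in control cortex at 1.78 ± 0.38 (adjusted p = 0.00195). A pair of lipases was looked up after the values were seen: Pnpla2, which encodes ATGL itself, fell in MIA cortex (-0.74 ± 0.23 (adjusted p = 0.0364)), control striatum (-0.94 ± 0.23 (adjusted p = 0.00518)) and control cortex (-0.85 ± 0.23 (adjusted p = 0.0107)), and Nceh1, a cholesteryl ester hydrolase, rose in control striatum (0.84 ± 0.18 (adjusted p = 0.00205)) and control cortex (0.70 ± 0.18 (adjusted p = 0.00923)).

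**Figure D3:**
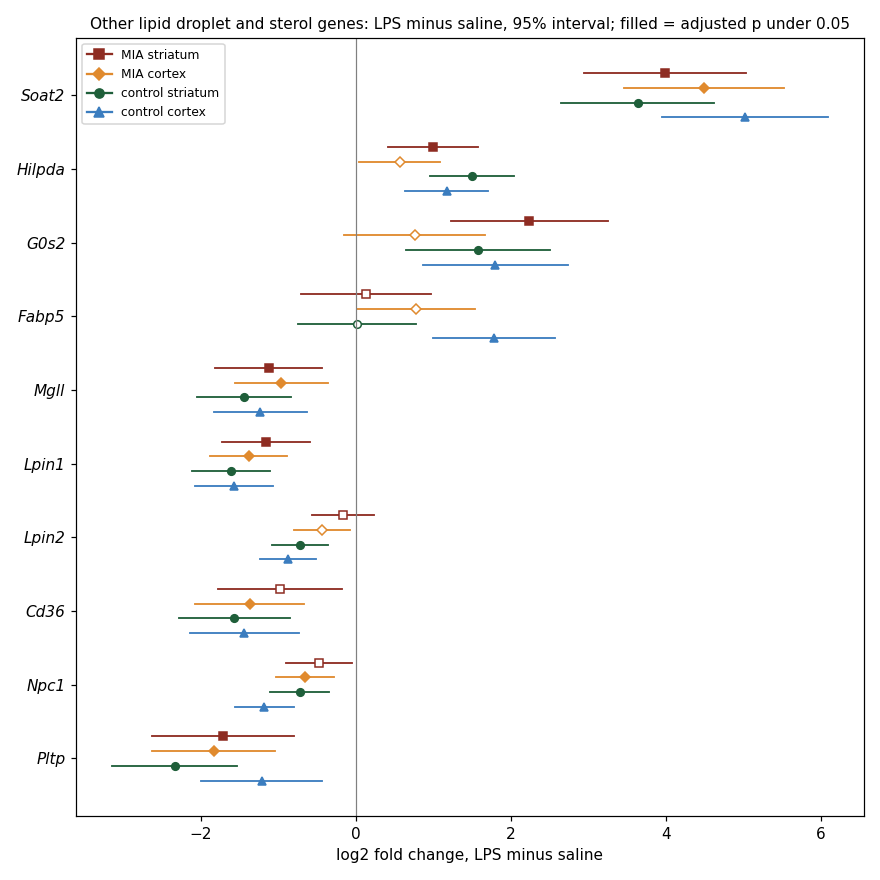
Log2 fold change of LPS against saline, with 95% intervals, for 10 other genes of lipid droplets, lysosomal sterol handling and sterol export, in the 4 combinations of prenatal history and region. Filled symbols had an adjusted p under 0.05. Soat2 lies to the right of 0 and Mgll, Lpin1 and Pltp to the left in all 4, each filled.

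Of 16 lysosomal and membrane-contact sterol genes, 1 rose and 0 fell in MIA striatum, 0 and 1 in MIA cortex, 1 and 1 in control striatum, and 1 and 1 in control cortex. Over all tested genes 6.93%, 7.05%, 12.7% and 10.9% rose and 3.31%, 4.85%, 8.15% and 7.25% fell in the same order. The counts of this list, and of the 10 oxysterol genes below, are near those shares. Npc1, which encodes the membrane protein that takes cholesterol from NPC2, fell in MIA cortex (-0.66 ± 0.18 (adjusted p = 0.0199)), control striatum (-0.73 ± 0.18 (adjusted p = 0.0064)) and control cortex (-1.18 ± 0.18 (adjusted p = 9.05e-05)), and was at -0.48 ± 0.20 (adjusted p = 0.165) in MIA striatum. In control striatum Npc1 thus fell where Npc2 rose. Of 10 oxysterol genes, 1 rose in MIA striatum (Hsd3b7, 0.94 ± 0.26 (adjusted p = 0.0217)), and Cyp27a1, the sterol 27-hydroxylase, was the one that fell in MIA cortex (-0.89 ± 0.19 (adjusted p = 0.00381)) and control cortex (-0.62 ± 0.19 (adjusted p = 0.0284)), while none was called in control striatum by edgeR.

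Of 17 tested genes of cholesterol synthesis and uptake, 4 rose in MIA striatum, 1 in MIA cortex, 2 in control striatum and 5 in control cortex, and 0 fell in any of the 4. Of all tested genes 6.93%, 7.05%, 12.7% and 10.9% rose in the same order, so the counts in MIA cortex and control striatum are near the background. Over the mean of the 4 comparisons 11 rose and 1 (Sc5d, a sterol desaturase) fell, against 20.7% higher and 16.9% lower of all genes, with a median of 0.43 beside -0.04 over all tested genes. Tmem97, which encodes a sterol-responsive membrane protein that binds NPC1, rose in all 4 (0.95, 0.86, 1.19 and 0.76 in MIA striatum, MIA cortex, control striatum and control cortex). Fdps, farnesyl diphosphate synthase, rose in MIA striatum (0.53 ± 0.15), control striatum (0.72 ± 0.14) and control cortex (0.53 ± 0.14). Sqle, squalene epoxidase, and Mvk, mevalonate kinase, rose in control cortex (1.67 ± 0.44 and 0.91 ± 0.28), and Mvd, mevalonate diphosphate decarboxylase, rose in MIA striatum (1.00 ± 0.27).

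The next question was whether MIA offspring differed from control offspring. After saline, edgeR called 0 of the 9 members in striatum and 0 in cortex, against 0% and 0% of all genes. At an unadjusted p under 0.05 the members counted 0 in both, among 842 genes in striatum and 921 in cortex. DESeq2 also called 0 members there. The intervals set how large a difference could have gone unseen. For Plin2 the MIA minus control difference was 0.02 in striatum (95% interval -0.46 to 0.49) and 0.34 in cortex (-0.13 to 0.81). For Soat1 it was -0.20 (-0.62 to 0.22) in striatum and -0.19 (-0.61 to 0.23) in cortex. For the low-count genes the intervals were wider. Nr1h3 differed by -0.45 (-1.26 to 0.36) in striatum and 0.84 (-0.01 to 1.69) in cortex, and Ch25h by -0.35 (-1.28 to 0.57) and 0.44 (-0.53 to 1.40).

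After LPS, edgeR called 0 members in striatum, in cortex and over the mean of both regions, where 0.146%, 0% and 1.09% of all genes were called. At an unadjusted p under 0.05, 1, 1 and 2 members passed, among 1556, 837 and 2059 of the 17139 tested genes. DESeq2 called 0, 1 and 1 members, and over both regions it called 535 genes. Over all genes the other settings, DESeq2 among them, called up to 221 in striatum and 57 in cortex. The member with the smallest p was Npc2. It averaged 759 ± 49.8 CPM in MIA striatum after LPS (SD, n = 2) and 906 ± 27.8 CPM in control striatum after LPS (n = 3). In cortex after LPS it averaged 703 ± 50.7 CPM in MIA offspring and 899.6 ± 37.4 CPM in control offspring (n = 3 each). All 5 MIA libraries after LPS lay below all 6 control libraries after LPS. Border macrophage markers also parted these groups in striatum, at 882 to 1226 CPM in MIA and 367 to 565 CPM in control offspring, and overlapped in cortex, at 555 to 1407 CPM in MIA and 470.4 to 1086 CPM in control offspring. Their part in the difference was not tested. Groups that do not overlap were found in 22.4% of all genes in striatum and 7.85% in cortex. The share over both regions together was not counted. Among the other members, Ch25h and Lipa in striatum and Nr1h3 in cortex did not overlap either. The log2 differences of Npc2 were -0.26 (-0.50 to -0.01) in striatum, -0.36 (-0.58 to -0.14) in cortex and -0.31 (-0.47 to -0.14) over both. The adjusted p in edgeR were 0.536, 0.486 and 0.0721. The mean over both regions was called with DESeq2 (adjusted p = 1.52e-05), with other size factors (0.0434), and without MIA cortex saline replicate 1 (0.0318). In cortex after LPS it was called with DESeq2 alone (0.00537). After saline the difference in Npc2 was 0.09 (-0.13 to 0.31) in striatum and -0.04 (-0.26 to 0.18) in cortex. The other gene with an unadjusted p under 0.05 over both regions after LPS was Abcg1, at -0.30 (-0.59 to -0.00, adjusted p = 0.408).

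**Figure D4:**
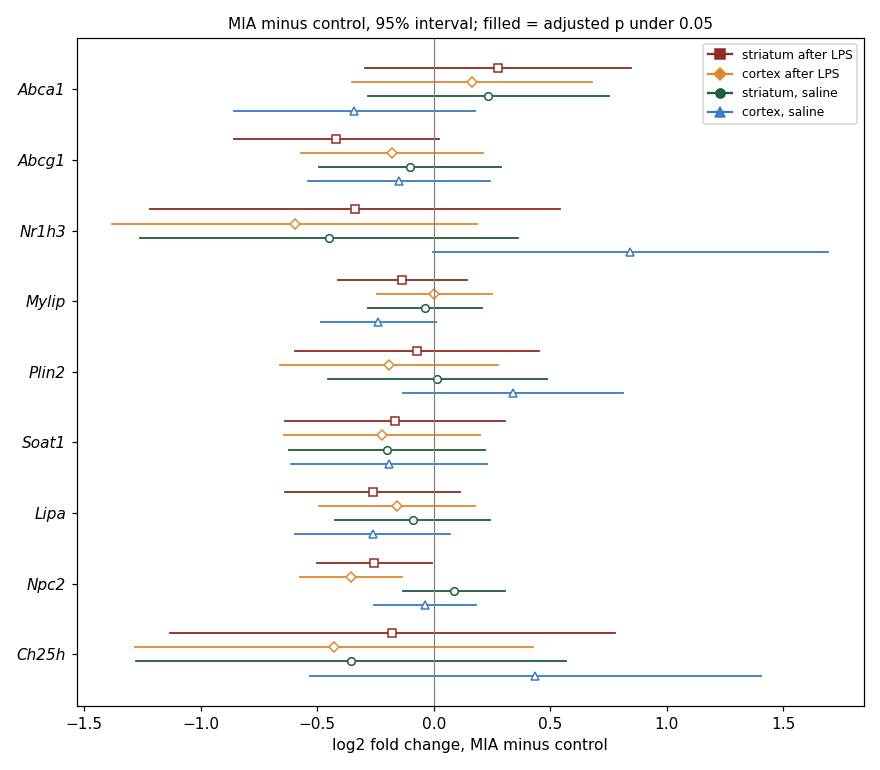
Log2 difference between MIA and control offspring for the 9 genes, with 95% intervals, in striatum and cortex after LPS and after saline. Open symbols had an adjusted p of 0.05 or more in the edgeR quasi-likelihood test, which is every one here. Npc2 after LPS has both intervals to the left of 0.

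Whether LPS acted to a different degree in MIA and control offspring was asked with an interaction term. None of the 9 members was called by edgeR in striatum, in cortex or over both, against 0%, 0% and 0.0175% of all genes. At an unadjusted p under 0.05, 1, 2 and 1 members passed, among 1323, 744 and 1597 of the 17139 tested genes. DESeq2 called 0, 0 and 1 members. The shares above are those of edgeR. Over all genes the other settings, DESeq2 among them, called up to 36, 2 and 149 in the same order, against 0, 0 and 3. The difference for Npc2 was -0.34 (-0.67 to -0.01) in striatum, -0.32 (-0.63 to -0.01) in cortex and -0.33 (-0.56 to -0.10, adjusted p = 0.321) over both. The last was called with DESeq2 (adjusted p = 0.00932). Nr1h3 had a smaller LPS response in MIA cortex than in control cortex by point estimate, at -1.44 (-2.59 to -0.29, adjusted p = 1), while in striatum the value was 0.11 (-1.07 to 1.29). For Plin2 the interaction was -0.09 (-0.79 to 0.62) in striatum and -0.53 (-1.20 to 0.13) in cortex. For Soat1 it was 0.03 (-0.60 to 0.66) in striatum and -0.03 (-0.62 to 0.57) in cortex. For Ch25h it was 0.18 (-1.14 to 1.50) in striatum and -0.86 (-2.15 to 0.43) in cortex. A missed threshold does not show that the responses were alike. These comparisons use the same saline and control libraries as those above, and the effects of MIA and of litter cannot be told apart.

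Striatum was last compared with cortex. edgeR called 0 members in each of the 4 settings, against 0.0117% of all genes in MIA offspring after LPS, 0.0817% in MIA offspring after saline, 0.0175% in control offspring after LPS and 0.502% in control offspring after saline. At an unadjusted p under 0.05 the members counted 0, 1, 2 and 3 in the same order, among 634, 783, 806 and 2030 of the 17139 tested genes. DESeq2 called 0, 1, 0 and 1 members. The shares above are those of edgeR. Over all genes the other settings, DESeq2 among them, called up to 16, 95, 51 and 586 in the same order, against 2, 14, 3 and 86. Mylip was higher in striatum by point estimate in all 4, with log2 differences of 0.13 (-0.14 to 0.41), 0.47 (0.22 to 0.72), 0.27 (0.02 to 0.52) and 0.27 (0.02 to 0.52). In MIA offspring after saline it was at 336, 337 and 333 CPM in striatum, against 242, 253 and 232 CPM in cortex, with an adjusted p of 0.217 and no overlap, as in 10.3% of all genes. DESeq2 called that difference (adjusted p = 0.00234). Nr1h3 in control offspring after saline differed by 1.44 (0.59 to 2.29, adjusted p = 0.108), and DESeq2 called it (0.0173). Replicates 1 and 2 of that striatum group also had the highest oligodendrocyte and endothelial marker sums of the 23 libraries, and the part of these cells in the difference was not tested. Of the 5 pathway lists, the one call between regions was Dgat2, a diacylglycerol acyltransferase, higher in control striatum after saline (2.38 ± 0.53 (adjusted p = 0.0441)).

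The genes whose log2 CPM followed each member most closely over the 23 libraries were listed by Pearson's r, as a description that includes the LPS and saline libraries together. Soat1 was followed by Alg2 (r = 0.983) and Adpgk (0.980), Ch25h by Ldha (0.975) and Tagln2 (0.974), Plin2 by Tnfsf9 (0.968) and Adssl1 (0.968), and Nr1h3 by Apoc2 (0.952) and Rangrf (0.940). The members that moved less had looser partners. Lipa was followed by Lamp2 (0.907), Npc2 by Slc3a2 (0.885), Abca1 by Ptbp3 (0.858), Mylip by Cartpt (0.834) and Abcg1 by Pfas (0.833). These r values all come from the same libraries and share the treatment contrast.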

How the data were processed

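RNA from CD11b-sorted cells was sequenced as Smart-Seq2 type libraries, per the labels. The deposited table held expected counts per gene and library, which the authors made with STAR and RSEM, and DESeq2 is also named, per the submitters' processing notes. Versions and genome build are not given in the sources used here. Of the deposited values 6.92% were not whole, and all were rounded to whole counts before testing. Of 55487 gene identifiers, 55141 matched a symbol.

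The 23 libraries (19453295 to 29480499 counts) were fitted in R 4.3.3 with edgeR 4.0.16: filterByExpr (minimum count 10, minimum total 15, 17139 genes kept), TMM scaling, and a quasi-likelihood model with 1 term for each of 8 groups (15 residual degrees of freedom). From it 18 comparisons were taken, with two-sided p-values adjusted by Benjamini and Hochberg within each, and called under 0.05. The edgeR test was checked on simulated counts for LPS in control cortex only, and the other comparisons were not simulated. Intervals are 95% from the fitted degrees of freedom, and r uses log2 CPM with a prior count of 2. Alternatives were DESeq2 1.42.0, its size factors in edgeR, no filter, the excluded library added back and a replicate block. Others were only the groups compared, and leaving out each library. The last was limma 3.58.1 voom with a correlated block. Each such block held the cortex and striatum libraries of the same prenatal group, treatment and replicate number.

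The members, the 5 pathway lists and the 9 marker lists were chosen with earlier results of these data known. The pathway genes named are up to 4 called genes per list and comparison with the smallest adjusted p, and exceptions are stated. Some called genes counted in these lists are not reported here by name. The labels do not say whether replicates are separate animals, so p-values measure only the spread between these samples, which may be technical. Overlapping transcripts were looked up in GENCODE annotation, and promoters were taken from RefSeq (GRCm38.p6). Not all overlaps are named above. Abcg1, Fdps, Hsd3b7, Lpin2, Mgll and Nceh1 also overlap annotated genes on the same strand, and reads of both cannot be fully told apart. Npc1, G0s2 and Mvd overlap others on the opposite strand. The library marked as excluded was used only as an alternative and for the values given at the end.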

Additional observations from a re-analysis of the deposited data

Results flagged for a closer look

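The library of MIA striatum after LPS that the submitters marked as excluded, replicate 3, was left out of the main fit. In this library 5 of the 9 genes stood above all saline libraries. How many of all tested genes did so was not counted. Its CPM were scaled with TMM factors taken over all 24 libraries, and those of the other libraries with factors taken over the 23. Abcg1 was at 542 CPM, above the saline maximum of 425 CPM. Nr1h3 was at 14.9 CPM, above every other library of either treatment. Plin2 was at 165 CPM, within the range of the LPS libraries used. Npc2 was at 893 CPM and Ch25h at 29.6 CPM, with Ch25h also above every other library. The other 4 genes, Abca1 (67.4 CPM), Soat1 (72.2 CPM), Mylip (184 CPM) and Lipa (124 CPM), were instead below all 23 libraries used. How many of all tested genes lay below them in this library was not counted either. In the same library the oligodendrocyte markers summed to 6304 CPM, against 283 to 1556 CPM in the other LPS libraries. Neuron markers summed to 302 CPM, against 27.3 to 267 CPM, and microglia markers to 26498 CPM, against 30375 to 42406 CPM. The part of these cells in its values was not tested.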

How the results depend on the processing

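No call of a member changed direction under any alternative, and 136 changes of sign were all in values not called. Most counts of called members in the 18 comparisons stayed within 1.5 times the reported ones. DESeq2 called 1 member, against 0, in each of 5 comparisons: MIA after LPS in cortex, MIA after LPS over both regions and its interaction with LPS over both regions (Npc2 in these), and striatum minus cortex after saline in control (Nr1h3) and in MIA offspring (Mylip). DESeq2 size factors in edgeR also gave 1 for MIA after LPS over both regions, as did the replicate block, with Npc2 at an adjusted p of 0.0401. The block gained Mylip in control cortex (0.0298) and control striatum (0.0229) for LPS. A correlated block (limma voom, correlation 0.278) left 5 members, against 8, in the mean LPS effect. Same-numbered cortex and striatum libraries correlated from -0.20 to 0.314 over 11 pairs (median 0.177), and other-numbered ones had a median of -0.123. The labels do not tie the numbers to animals, and 3 pairs were under 0.1 (1 of them in the group of 2 libraries, whose deviations mirror each other), so the block was kept as an alternative. Leaving out 1 library moved the called members to 5 to 9 for the mean LPS effect, 3 to 5 in MIA striatum and 0 to 1 for MIA after LPS over both regions. The mean LPS effect counted 5 without MIA cortex LPS replicate 1, MIA striatum LPS replicate 2 or MIA striatum saline replicate 3. The cause of these shifts was not tested.

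Over all genes, counts moved more. With only the groups compared, LPS called 2306 genes, against 3576, in control striatum and 1147, against 2039, in MIA cortex. For MIA after LPS over both regions 186 genes became 535 with DESeq2, 94 with voom, 46 with the excluded library and 5 with only the groups compared. In striatum after LPS 25 became 0 to 221, in cortex 0 became up to 57 under other settings, and for the interaction over both regions 3 became 0 to 149. MIA after saline over both regions reached 33 genes, against 0, and the interaction 36 in striatum and 2 in cortex, against 0. Striatum minus cortex gave 19 to 586, against 86, in control and 2 to 95, against 14, in MIA offspring after saline, and 0 to 51, against 3, and 0 to 16, against 2, after LPS. Leaving out 1 library gave 758 to 1947 genes, against 1755, for LPS in MIA striatum, lowest without its LPS replicate 2. For MIA after LPS it gave 0 to 89 in cortex, 0 to 99 in striatum and 19 to 271 over both, and for the interaction 0 to 35, 0 to 23 and 0 to 106. The counts of 89, 99, 35, 23 and 106 came without MIA cortex LPS replicate 3, and the 19 without MIA striatum LPS replicate 1. Striatum minus cortex gave 0 (without control cortex saline replicate 1) to 220 in control and 4 to 20 in MIA offspring after saline. Depth limits Nr1h3 and Ch25h most, whose saline libraries hold as few as 14 and 13 counts.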
